A study of Homo sapiens with 414 samples.

Results

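IRF factors and the kinases that activate them were followed by 7 genes: the transcription factors IRF3, IRF7, IRF1 and IRF2, the kinases TBK1 and IKBKE, and the scaffold gene TANK. They were chosen by name for their place in one signalling route, out of 36135 genes in the count table. Earlier results of these data were known at that choice. Counts of these genes set beside shares of all genes are therefore descriptions. All 7 passed the filter on low counts that left 20326 genes for testing. All cells were of LNCaP, a human prostate carcinoma line that responds to androgen, and all had been exposed to an siRNA. The knockdown cells received an siRNA against SULT2B1 made by IDT, and the control cells a non-targeting one made by Dharmacon. Because the siRNAs came from different suppliers, an effect of the target and an effect of the oligonucleotide cannot be told apart. At 48 h, single cells were isolated on a microfluidic C1 plate, in 3 batches that each held both groups. There were 66, 65 and 61 knockdown cells and 76, 66 and 67 control cells in batches 1, 2 and 3. The series as a whole asks how SULT2B1, a sulfotransferase of sterols, bears on killing by TNF in prostate cancer.

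Interferon regulatory factors bind DNA elements in the promoters of type I and type III interferon genes and of genes induced by interferon. When sensors of foreign RNA or DNA are engaged, the kinases TBK1 and IKK epsilon (the product of IKBKE) phosphorylate IRF3 and IRF7, which then enter the nucleus, and TANK holds the kinases in complexes with adaptor proteins. IRF3 and TBK1 are known as constitutive components, whereas IRF7, IRF1 and IKBKE are known to be transcriptionally inducible. IRF1 is an activator, and IRF2 binds the same elements and is best known for opposing it. Activation of IRF3 and of the kinases is by phosphorylation, which transcript counts do not measure.

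Promoter windows of 300 bases (250 before the gene start and 50 after it; RefSeq, GRCh38.p14) were found for 4 of the 7 genes: IRF1, TBK1, IKBKE and TANK, the last with 2 windows. IRF2, IRF3 and IRF7 were not in the promoter table. Shown here are the 250 bases before the start of IRF1, the factor with the largest fold change of the 7, at chr5:132490774-132491023 on the minus strand, and of IKBKE, the kinase with the larger fold change, at chr1:206470226-206470475 on the plus strand. Both read 5′ to 3′ in the direction of the gene, and capitals mark every match to a motif searched.
IRF1: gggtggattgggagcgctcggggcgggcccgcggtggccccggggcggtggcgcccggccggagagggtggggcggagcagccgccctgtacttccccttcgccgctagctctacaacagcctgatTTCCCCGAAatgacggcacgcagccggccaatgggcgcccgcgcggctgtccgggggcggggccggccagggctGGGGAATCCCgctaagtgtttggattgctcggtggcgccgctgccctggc
IKBKE: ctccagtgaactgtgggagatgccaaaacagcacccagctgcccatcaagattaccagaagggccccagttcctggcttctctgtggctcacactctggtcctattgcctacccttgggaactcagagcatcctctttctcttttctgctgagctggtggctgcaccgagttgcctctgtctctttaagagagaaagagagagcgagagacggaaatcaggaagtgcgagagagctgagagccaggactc

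On both strands of each window 3 motifs were searched: the core of the interferon-stimulated response element (GAAANNGAA), the gamma-activated site bound by dimers of STAT factors (TTCNNNGAA) and the kappa B element bound by NF-kB. Of all 35116 windows in the promoter table, 8.11% held the response element core, 7.66% the gamma-activated site and 11.3% the kappa B element. The IRF1 window held a gamma-activated site starting at base -124 and a kappa B element starting at base -50, each also read from the opposite strand and neither overlapping the other. A TANK window (chr2:161136713-161137012) held a kappa B element that reads as such on the strand opposite the gene, starting at base -46; in the direction of the gene its letters are GGAAGTTCCC. The IKBKE and TBK1 windows and the other TANK window held none of the 3, which says only that these letters are not in these windows. A match is a description of sequence.

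SULT2B1 itself had 13, 21 and 0 reads in the knockdown libraries and 152, 109 and 332 reads in the control libraries of batches 1, 2 and 3. The groups did not overlap. Its log2 fold change, knockdown over control, was -4.13 (SE 1.43; edgeR adjusted p = 0.268), which did not pass the threshold of 0.05. For this and every edgeR or DESeq2 test below, reads were summed over the cells of a group and batch, giving 3 knockdown and 3 control libraries of 71630108 to 84359044 reads. Levels are in CPM, counts after scaling for library size (TMM). Cells with over 20% mitochondrial reads numbered 6, 0 and 2 in the knockdown batches and 21, 8 and 6 in the control batches. Of the 8 markers of luminal prostate cells, all were present. KLK3 and KLK2, targets of the androgen receptor, fell in knockdown cells (log2 fold changes -1.51 and -1.26, edgeR adjusted p = 0.0416 and 0.0446). They were the only 2 of the 8 that edgeR called after adjustment. At an unadjusted edgeR p of 0.05, 4 of the 8 were lower and 2 were higher, so the markers did not move as a set. The 8 blood markers that were in the table summed to 0.0817 to 0.797 CPM in the knockdown libraries and to 0.0274 to 1.98 CPM in the control libraries, with CD14 at 0.

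Among the 7 genes, IRF1, IRF7, IKBKE, IRF2 and IRF3 were higher in each of the 3 knockdown libraries than in any control library, while TBK1 and TANK overlapped between the groups. The fold changes of IRF1, IRF7 and IKBKE were the largest of the 7. None of the 7 passed an adjusted p of 0.05 in the edgeR quasi-likelihood test over all genes, where 0.777% of genes were called. At an unadjusted edgeR p of 0.05, 4 were higher (IRF1, IRF2, IRF7 and IKBKE), against 6.4% of all genes. DESeq2 called the same 4 genes higher after adjustment, against 3.63% of the genes with an adjusted p. Libraries that did not overlap, with knockdown above control, were found for 5 of the 7 and for 10.5% of all genes. With equal weight per cell, limma called 1 of the 7 (IRF1), against 0.767% of all genes. The log2 fold change was positive for 7 of 7 genes, with a median of 1.06, and the median over all genes was 0.0063. In the edgeR fits with batch as a block and without cells of over 20% mitochondrial reads, 0 of the 7 were called.

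**Figure D1:**
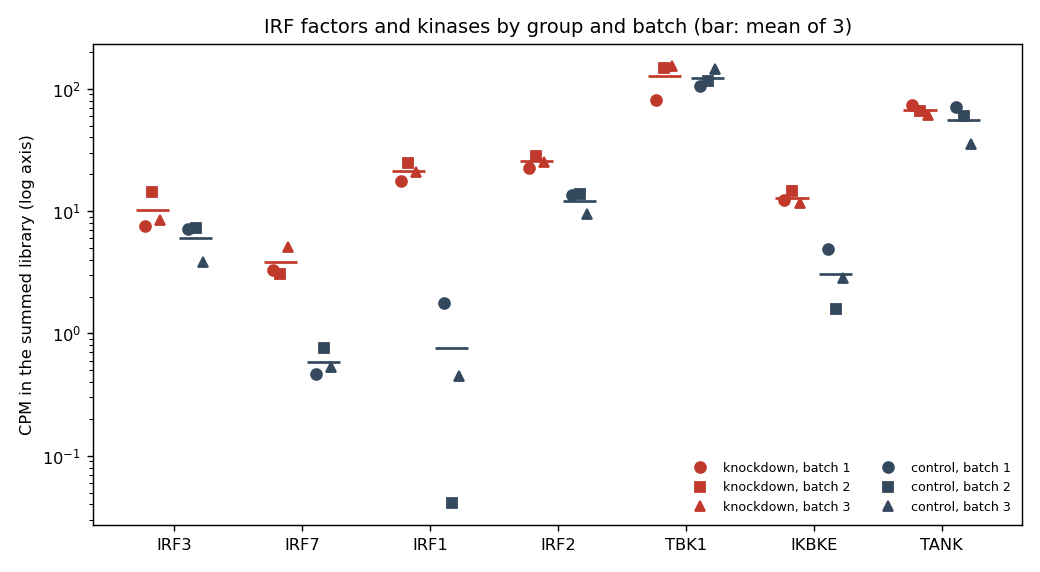
Level of each gene in the 6 summed libraries (CPM, log axis), with knockdown in red and control in dark blue; marker shapes stand for batches and bars for the mean of 3. IRF1 lies at 17.8 to 24.9 CPM in knockdown and at 0.0410 to 1.77 CPM in control, and TBK1 and TANK overlap between the groups.

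IRF3, the constitutive factor that TBK1 phosphorylates, lies on chromosome 19 (49659569 to 49665875, minus strand; this and the gene spans below are from GENCODE 29 on GRCh38). It had 7.57, 14.3 and 8.52 CPM in knockdown batches 1, 2 and 3 and 7.12, 7.26 and 3.84 CPM in control batches 1, 2 and 3. The groups were separated by a small margin, from 7.57 in the lowest knockdown library to 7.26 CPM in the highest control library. The means were 10.1 ± 3.65 CPM in knockdown and 6.07 ± 1.94 CPM in control (SD, n = 3 libraries each). The log2 fold change was 0.74 (SE 0.41, 95% interval -0.23 to 1.71; edgeR adjusted p = 0.518). The interval thus spans no change and reaches a 3.27-fold difference at its upper end. Exons of IRF3 share 734 bases with BCL2L12, a gene on the opposite strand, which had 2.12 ± 0.584 CPM in knockdown and 4.55 ± 0.726 CPM in control (log2 fold change -1.10, edgeR adjusted p = 0.366). The strand setting of the counting is not given in the sources used here, so reads from the shared bases cannot be told apart.

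IRF7, the inducible partner of IRF3 that amplifies interferon production, lies on chromosome 11 (612553 to 615999, minus strand). It had 263, 228 and 432 reads in the knockdown libraries and 34, 56 and 41 reads in the control libraries. These were 3.28, 3.08 and 5.04 CPM in knockdown and 0.463, 0.766 and 0.528 CPM in control. Every knockdown library was above every control library. The means were 3.80 ± 1.08 CPM in knockdown and 0.586 ± 0.159 CPM in control (SD, n = 3). The log2 fold change was 2.70 (SE 0.59, 95% interval 1.32 to 4.07), a 6.48-fold difference (2.50 to 16.8). With equal weight per cell (limma) the log2 fold change of IRF7 was 1.85. The edgeR p was 0.00216 before and 0.102 after adjustment over all genes; DESeq2 gave an adjusted p of 0.000215, and over all 15 alternatives tried the adjusted p ranged between 0.000215 and 0.300.

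IRF1, an activator of antigen presentation and guanylate-binding protein genes, lies on chromosome 5 (132481609 to 132490798, minus strand). It had 1424, 1842 and 1774 reads in the knockdown libraries and 130, 3 and 35 reads in the control libraries. These were 17.8, 24.9 and 20.7 CPM in knockdown and 1.77, 0.0410 and 0.451 CPM in control. The knockdown libraries lay close together, whereas the control libraries differed widely from each other, with most control reads in batch 1. The means were 21.1 ± 3.56 CPM in knockdown and 0.754 ± 0.903 CPM in control (SD, n = 3). The log2 fold change was 4.81 (SE 1.08, 95% interval 2.27 to 7.35), a 28.0-fold difference (4.81 to 163). The edgeR p was 0.00272 before and 0.108 after adjustment, while DESeq2 gave an adjusted p of 1.50e-06, limma with equal weight per cell 0.00735 and edgeR without a filter on low counts 0.0391. Over the 15 alternatives the adjusted p ranged between 1.50e-06 and 0.286.

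Single control cells carried much of the IRF1 signal in control: 1 cell held 58.5% of the reads of batch 1, 100% of batch 2 and 68.6% of batch 3. In the knockdown libraries the top cell held 16.2%, 30.2% and 39.4% of the reads. Without control batch 1 the log2 fold change of IRF1 was 6.40, and without control batch 2 it was 4.25. Exons of IRF1 share 1716 bases with IRF1-AS1 on the opposite strand. IRF1-AS1 had 8.87, 10.5 and 21.6 CPM in knockdown and 4.41, 5.70 and 2.36 CPM in control (log2 fold change 1.72, edgeR adjusted p = 0.185). Its groups did not overlap either, and how many of the shared reads come from which gene cannot be told apart.

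IRF2, the counterpart of IRF1 that binds the same elements, lies on chromosome 4 (184387713 to 184474580, minus strand). It had 22.6, 28.4 and 25.4 CPM in knockdown and 13.4, 13.7 and 9.43 CPM in control. The groups did not overlap, and each had a narrow spread. The means were 25.5 ± 2.89 CPM in knockdown and 12.2 ± 2.40 CPM in control (SD, n = 3), with a log2 fold change of 1.06 (SE 0.25, 95% interval 0.47 to 1.65). The edgeR p was 0.00347 before and 0.121 after adjustment, DESeq2 gave an adjusted p of 0.00200, and the range over the 15 alternatives was 0.00200 to 0.387.

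TBK1, the constitutive kinase, lies on chromosome 12 (64451880 to 64502108, plus strand). It had 81.7, 148 and 154 CPM in knockdown and 106, 116 and 145 CPM in control. Knockdown batch 1 was the lowest of the 6 libraries and the other knockdown batches were the highest, so the groups overlapped. The means were 128 ± 40.1 CPM in knockdown and 122 ± 20.2 CPM in control (SD, n = 3), and the log2 fold change was 0.07 (SE 0.26, 95% interval -0.53 to 0.67; edgeR adjusted p = 0.955). The sign of this small difference was not stable: it was negative in 4 of 15 alternatives, at -0.0095 without cells holding an interferon gene read, -0.039 without control batch 1, -0.052 without knockdown batch 2 and -0.091 without knockdown batch 3.

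IKBKE, the inducible kinase, lies on chromosome 1 (206470476 to 206496889, plus strand). It had 12.2, 14.6 and 11.6 CPM in knockdown and 4.86, 1.59 and 2.82 CPM in control. Every knockdown library was above every control library. The means were 12.8 ± 1.58 CPM in knockdown and 3.09 ± 1.65 CPM in control (SD, n = 3). The log2 fold change was 2.05 (SE 0.46, 95% interval 0.96 to 3.14), a 4.14-fold difference. The edgeR p was 0.00278 before and 0.108 after adjustment; DESeq2 gave an adjusted p of 0.000631, and the range over the 15 alternatives was 0.000631 to 0.293.

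TANK, the scaffold, lies on chromosome 2 (161136908 to 161236221, plus strand). It had 73.3, 66.2 and 61.5 CPM in knockdown and 70.9, 59.8 and 35.3 CPM in control. The groups overlapped, with control batch 3 standing below the other 5 libraries. The means were 67.0 ± 5.91 CPM in knockdown and 55.3 ± 18.2 CPM in control (SD, n = 3), with a log2 fold change of 0.28 (SE 0.26; edgeR adjusted p = 0.748). Without control batch 3 it was 0.032.

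**Figure D2:**
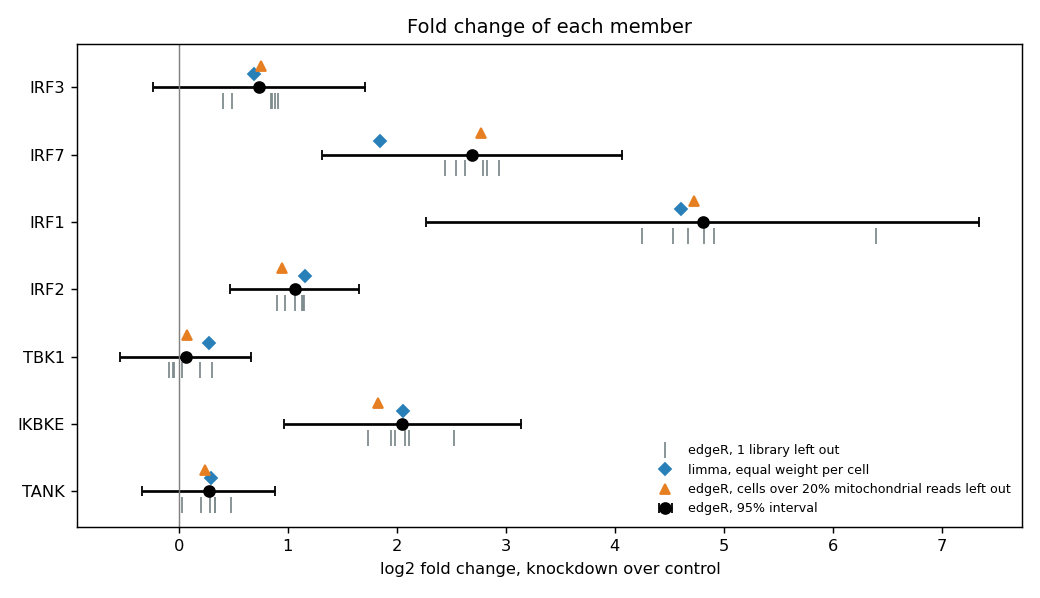
Log2 fold change of each gene, knockdown over control: black points with 95% intervals are from edgeR, grey ticks from edgeR with 1 library left out, blue diamonds from limma with equal weight per cell and orange triangles from edgeR without cells of over 20% mitochondrial reads. The grey ticks of IRF1 reach from 4.25 to 6.40, and those of TBK1 lie on both sides of 0.

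Levels were set against each other per kilobase of exon (CPM per kb, GENCODE 29 exon lengths). In knockdown cells the order of mean levels was TBK1 (26.9 ± 8.42 CPM per kb), TANK (12.0 ± 1.06), IRF2 (8.18 ± 0.929), IKBKE (3.38 ± 0.418), IRF1 (2.71 ± 0.457), IRF3 (2.67 ± 0.962) and IRF7 (1.45 ± 0.411; SD, n = 3 libraries for each). In control cells it was TBK1 (25.7 ± 4.24 CPM per kb), TANK (9.92 ± 3.26), IRF2 (3.91 ± 0.769), IRF3 (1.60 ± 0.510), IKBKE (0.815 ± 0.436), IRF7 (0.223 ± 0.0607) and IRF1 (0.0966 ± 0.116). The 3 most abundant genes kept their order in every library of both groups. Per kb, IRF1 had the lowest mean level of the 7 in control cells. In CPM not divided by length, IRF7 was below IRF1 there (0.586 and 0.754 CPM). In knockdown cells IRF1 was then above IKBKE (21.1 and 12.8 CPM). These ranks thus depend on the exon lengths used, 7.80 kb for IRF1, 2.63 kb for IRF7 and 3.79 kb for IKBKE. Neighbours whose library ranges overlapped were IKBKE with IRF1 and IRF1 with IRF3 in knockdown, and IRF3 with IKBKE and IRF7 with IRF1 in control.

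Whether related genes moved by unequal amounts was tested with ratios within a library, in which the scaling of libraries cancels. The log2 ratio of IRF1 to IRF2 reads was -0.35, -0.19 and -0.29 in knockdown and -2.93, -8.38 and -4.39 in control. IRF1 reads were thus nearly as many as IRF2 reads in each knockdown library, and far fewer in each control library. The difference of the means was 4.95, moving to 6.11 without control batch 1 and to 3.38 without control batch 2.

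For the other pairs, the log2 ratio of IRF7 to IRF3 was -1.20, -2.22 and -0.76 in knockdown and -3.94, -3.25 and -2.86 in control, a difference of means of 1.96. The log2 ratio of IKBKE to TBK1 was -2.74, -3.34 and -3.74 in knockdown and -4.44, -6.20 and -5.68 in control, a difference of 2.17. IRF7 and IKBKE, like IRF1, thus took a larger share of their pair in every knockdown library than in any control library. Ratios of other gene pairs were not computed, and these differences follow from the fold changes given above. Each of the 3 ratios had an exact permutation p of 0.1 (two-sided; 0.1 after adjustment over the 3 ratios), the smallest that 3 against 3 libraries can give, and 0.25 within batches, also the smallest possible. Without cells of over 20% mitochondrial reads the IRF7 to IRF3 ratios were -1.20, -2.22 and -0.91 in knockdown and -3.87, -3.92 and -2.13 in control. The groups then overlapped, and the exact permutation p was 0.2.

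Detection in single cells separated the genes further. IRF1 was detected, with at least 1 read, in 28 of 66, 34 of 65 and 37 of 61 knockdown cells, against 7 of 76, 1 of 66 and 3 of 67 control cells. These shares were 42.4%, 52.3% and 60.7% in knockdown and 9.21%, 1.52% and 4.48% in control; the exact 95% intervals run from 30.3 at the lowest to 72.9% at the highest in knockdown, and from 0.0384 to 18.1% in control. IRF1 thus went unrecorded in many knockdown cells, and the intervals of the groups did not meet in any batch.

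IRF7 was detected in 26 of 66, 23 of 65 and 22 of 61 knockdown cells and in 6 of 76, 9 of 66 and 8 of 67 control cells. The mean shares were 36.9% ± 2.15 in knockdown and 11.2% ± 2.95 in control (SD, n = 3). IRF2 was detected in 64.7% ± 4.12 of knockdown cells and 48.4% ± 7.07 of control cells. For both genes every knockdown batch had a higher share than every control batch. IRF3 was detected in 56.2% ± 4.63 of knockdown cells and 42.1% ± 4.83 of control cells, again without overlap.

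Of the kinases, TBK1 was found in most cells, with shares of 91.6% ± 1.95 in knockdown and 89.0% ± 8.81 in control. The lowest share was 78.9%, in control batch 1. Without cells of over 20% mitochondrial reads the TBK1 shares were 93.5% ± 1.77 in knockdown and 94.7% ± 3.15 in control. IKBKE was found in a minority, with 39.4%, 38.5% and 26.2% of knockdown cells and 26.3%, 15.2% and 14.9% of control cells. Knockdown batch 3 lay just below control batch 1, so the IKBKE shares overlapped (exact permutation p = 0.2), whereas the summed levels did not. TANK was detected in 83.3% ± 1.32 of knockdown cells and 74.1% ± 7.56 of control cells, without overlap.

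For IRF1, IRF7, IRF2, IRF3 and TANK the exact permutation p of the shares was 0.1, the smallest 3 against 3 batches can give. Shares without overlap, with knockdown above control, were thus found for 5 of the 7 genes and for 15.3% of all genes tested. With each cell thinned to 100000 reads, 6 of the 7 genes had higher shares in every knockdown batch, against 14.9% of all genes, IKBKE included (23.2% ± 4.87 in knockdown and 9.98% ± 3.88 in control). Without cells of over 20% mitochondrial reads, 3 of the 7 did so, against 9.49% of all genes: IRF1, IRF3 and IRF7. In that setting IRF2 was detected in 66.9% ± 3.69 of knockdown cells and 56.7% ± 13.9 of control cells, with overlap.

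**Figure D3:**
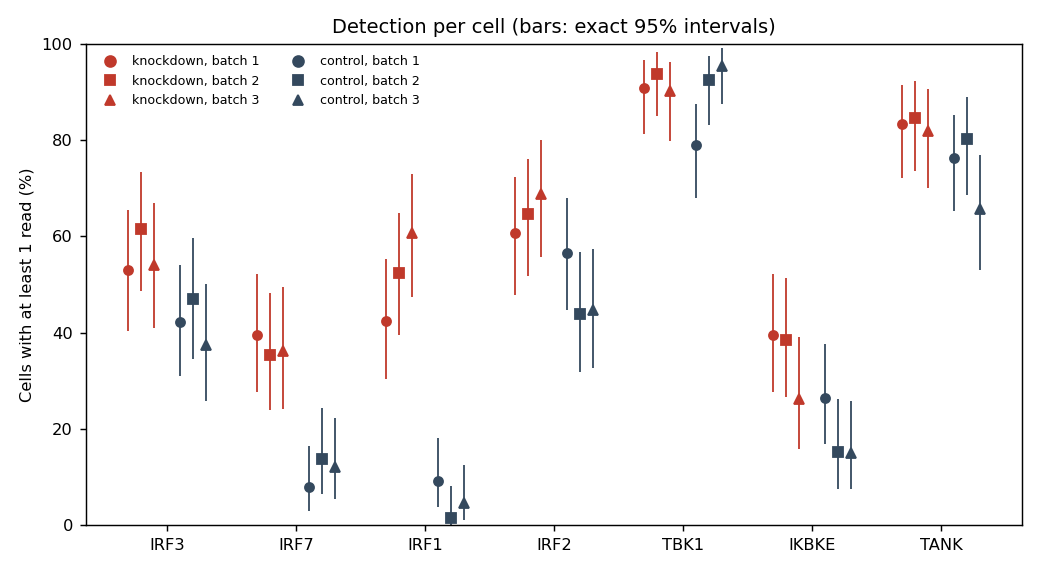
Share of cells with at least 1 read of each gene (percent), with knockdown in red left of control in dark blue; each point is 1 batch, with its exact 95% binomial interval, which covers counting error only. IRF1 shares are 42.4 to 60.7% in knockdown and 1.52 to 9.21% in control, while TBK1 is at 78.9% or above in all 6 libraries.

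In cells that held a read, the median level separated the groups for IRF2 and IKBKE only. The mean of the batch medians for IRF2 was 24.3 ± 9.68 CPM in knockdown and 9.05 ± 2.28 CPM in control. For IKBKE it was 16.4 ± 4.34 and 7.04 ± 2.53 CPM in the same order (exact permutation p = 0.1 for each gene). The share of all genes that separate on this measure was not counted. Among cells with an IRF1 read, the median level was 34.0, 16.3 and 11.2 CPM in the knockdown batches and 2.59, 2.63 and 14.1 CPM in the control batches, the control values resting on 7, 1 and 3 cells. Median levels of IRF1 in detecting cells thus overlapped between the groups, unlike the shares. Averaged over all cells, the mean of log2(CPM + 1), a scale that understates the change of low genes, was 2.11 ± 0.13 in knockdown and 0.14 ± 0.12 in control for IRF1. For IRF7 it was 1.03 ± 0.16 in knockdown and 0.26 ± 0.06 in control, and for IKBKE 1.41 ± 0.23 and 0.59 ± 0.24 in the same order. On this measure 6 of the 7 genes were higher in every knockdown batch, against 15.9% of all genes (exact permutation p = 0.1 for each), TBK1 being the exception at 5.49 ± 0.59 in knockdown and 5.18 ± 0.51 in control (exact permutation p = 0.5). With log2(CPM + 10) the count was 5 of 7, against 15.0% of all genes, TANK then overlapping as well. Without cells of over 20% mitochondrial reads it was 4 of 7 (IRF1, IRF2, IRF3 and IRF7), against 11.7% of all genes. In that setting TANK was at 4.29 ± 0.28 in knockdown and 4.03 ± 0.72 in control, higher in 1 of 3 batches (exact permutation p = 0.9), and IKBKE at 1.43 ± 0.35 in knockdown and 0.72 ± 0.37 in control (exact permutation p = 0.2).

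**Figure D4:**
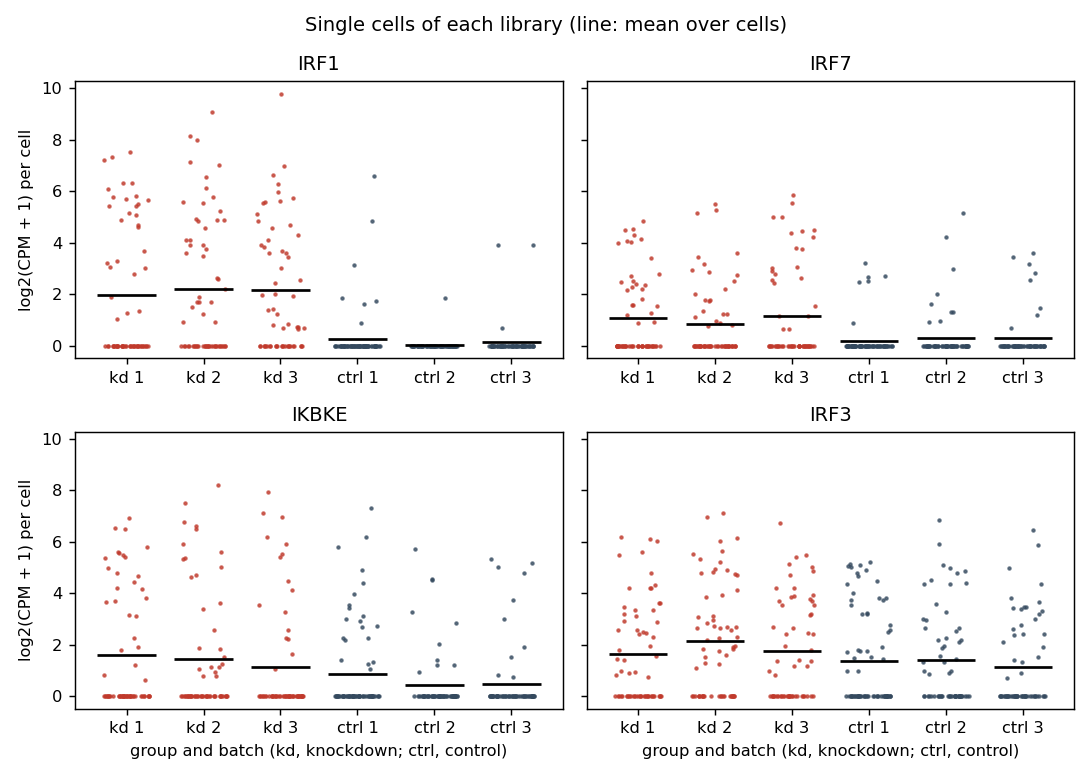
Level of IRF1, IRF7, IKBKE and IRF3 in each cell, as log2(CPM + 1), by group and batch, with knockdown in red and control in dark blue; each dot is 1 cell and the line is the mean over cells. IRF1 cells above 0 number 28, 34 and 37 in knockdown and 7, 1 and 3 in control, and cells at 0 remain in every library.

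The genes were also counted together within a cell. A knockdown cell had a read of 4.09, 4.31 and 4.18 of the 7 genes on average in batches 1, 2 and 3, against 2.97, 2.94 and 2.75 in control cells. IRF1 and IRF7 were both detected in 18.2%, 21.5% and 24.6% of knockdown cells and in 1.32%, 0% and 1.49% of control cells. For 0 of 66 cells, an approximate one-sided 95% limit (3 divided by the number of cells) is 4.55%. At least 1 of the kinases was detected together with IRF3 or IRF7 in 68.2%, 75.4% and 65.6% of knockdown cells and in 40.8%, 47.0% and 41.8% of control cells. A kinase of either kind was seen in 93.9%, 95.4% and 95.1% of knockdown cells and in 81.6%, 93.9% and 95.5% of control cells, with overlap between the groups. All 7 were detected in 6, 3 and 0 knockdown cells of batches 1, 2 and 3. No control cell had a read of all 7. Taken batch by batch, the same approximate limit for this absence is 3.95%, 4.55% and 4.48% in control batches 1, 2 and 3.

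Across cells within a library the genes varied largely apart. Pearson's r of log2(CPM + 1), taken within each of the 6 libraries and averaged, ran from -0.09 for IRF1 with TANK to 0.18 for IRF1 with IRF2 over the 21 pairs. IRF1 with IRF2 ranged between -0.03 and 0.47 in single libraries. These values are descriptions over cells that share a library and its depth, in sparse counts. Among 10396 genes with a read in at least 20% of the cells of every library, the gene most like IRF2 was APOL2 (mean r 0.30), that most like IRF3 was UBE2F (0.23), that most like TBK1 was TAF7 (0.32) and that most like TANK was RTCB (0.32). IRF1, IRF7 and IKBKE were below that detection limit.

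Knockdown cells that held a read of an interferon gene (IFNB1 or a type III interferon gene) were compared with the other knockdown cells of their batch. There were 19, 8 and 27 such cells and 47, 57 and 34 without. IRF2 was at a mean log2(CPM + 1) of 4.16, 5.13 and 3.29 in cells with an interferon read and at 2.12, 2.60 and 2.29 in cells without. IRF1 was at 2.57, 5.70 and 2.58 in cells with one and at 1.71, 1.73 and 1.80 in cells without. Both were higher in interferon-read cells in all 3 batches, and IKBKE was too, by 0.38, 1.38 and 0.05. The share of all genes higher in all 3 batches of this split was not counted. The differences are thus not shown to be particular to these genes.

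For each of IRF1, IRF2 and IKBKE the exact test within batches gave p = 0.25, the smallest that 3 batches allow. IRF7, IRF3 and TBK1 differed in opposite directions between batches; IRF7 was higher by 0.50 and 1.40 in batches 1 and 2, and its difference was -0.63 in batch 3. TANK was higher by 0.01 in batch 1 and its difference was -1.22 and -0.55 in the others. The median number of reads per cell was 1125920, 870626 and 1485810 in cells with an interferon read and 1208420, 1110740 and 1368730 in cells without, and its part in these differences was not tested. With all cells holding an interferon read left out of both groups, the log2 fold change, knockdown over control, was 4.51 for IRF1, 2.77 for IRF7, 2.05 for IKBKE and 0.75 for IRF2 (edgeR adjusted p = 0.165, 0.173, 0.151 and 0.387).

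The rest of the pathway was read from 8 lists of genes with known roles, beside a median log2 fold change of 0.0063 and 0.777% called over all genes. These lists, too, were chosen with earlier results of these data known. Fits with batch as a block called 38 genes in all, against 158 without it, and the blocked count is given for each list with a call. Of the other IRF genes, 1 of 6 tested rose and none fell, with a median log2 fold change of 0.13. The one that rose was IRF9, the DNA-binding partner of STAT factors in the interferon response, at 6.06 ± 2.98 CPM in knockdown and 0.157 ± 0.0539 CPM in control (log2 fold change 5.26, SE 0.70, edgeR adjusted p = 0.0228). With the block 0 of 6 passed. IRF2BP2, a corepressor that binds IRF2, was at 110 ± 31.3 CPM in knockdown and 117 ± 21.5 CPM in control (edgeR adjusted p = 0.928). The lymphoid factors IRF4 and IRF8 had 1 read or none in each knockdown library and 3 or fewer in each control library.

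Of the partner adaptors of the kinases, 2 of 7 rose and none fell (median log2 fold change 0.46; 0 of 7 with the block). OPTN, a ubiquitin-binding adaptor of TBK1, was at 21.7 ± 5.16 CPM in knockdown and 3.54 ± 0.226 CPM in control (log2 fold change 2.62, SE 0.30, edgeR adjusted p = 0.0127). SQSTM1, an autophagy receptor that TBK1 phosphorylates, was at 103 ± 5.22 CPM in knockdown and 44.6 ± 10.1 CPM in control (log2 fold change 1.21, SE 0.19, edgeR adjusted p = 0.0470). AZI2, a scaffold of the same kind as TANK, was at 52.7 ± 9.34 CPM in knockdown and 47.4 ± 8.45 CPM in control (edgeR adjusted p = 0.848).

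Of the upstream sensors and their adaptors, 2 of 9 rose and none fell (median log2 fold change 1.39; 1 of 9 with the block). RIGI, the RNA helicase RIG-I, was at 372 ± 40.1 CPM in knockdown and 16.4 ± 3.07 CPM in control (log2 fold change 4.51, SE 0.19, edgeR adjusted p = 0.000223). IFIH1, the helicase MDA5, was at 69.7 ± 17.4 CPM in knockdown and 6.81 ± 2.15 CPM in control (log2 fold change 3.35, SE 0.34, edgeR adjusted p = 0.00863). Their shared adaptor MAVS was at 57.6 ± 6.75 CPM in knockdown and 53.1 ± 14.1 CPM in control (edgeR adjusted p = 0.902). The DNA sensor CGAS had at most 2 reads in a knockdown library and at most 6 in a control library and was not tested.

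No gene passed among the other IKK and NF-kB subunits (0 of 8 by edgeR, 4 of 8 higher at an unadjusted p of 0.05, 3 of 8 by DESeq2; median log2 fold change 1.06). RELA, the main activating NF-kB subunit, was at 22.5 ± 2.12 CPM in knockdown and 10.2 ± 1.93 CPM in control, without overlap (log2 fold change 1.15, SE 0.26, edgeR adjusted p = 0.106). NFKB1 was at 43.6 ± 18.8 CPM in knockdown and 22.1 ± 7.20 CPM in control (edgeR adjusted p = 0.330). Of the genes that restrain the kinases or IRF3, 0 of 10 passed edgeR, 5 of 10 were higher at an unadjusted p of 0.05 and 3 of 10 by DESeq2 (median log2 fold change 0.33). TAX1BP1, an adaptor of the deubiquitinase A20, was at 336 ± 10.5 CPM in knockdown and 278 ± 5.88 CPM in control (log2 fold change 0.27, edgeR adjusted p = 0.254), and CYLD, another deubiquitinase, at 93.0 ± 9.80 and 54.3 ± 14.4 CPM in the same order (log2 fold change 0.78, edgeR adjusted p = 0.162).

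Of the genes through which interferons and cytokines induce IRF1, IRF7 and IRF9, 1 of 10 rose and none fell (median log2 fold change 0.20; 0 of 10 with the block). STAT2 was at 130 ± 43.3 CPM in knockdown and 103 ± 18.9 CPM in control (edgeR adjusted p = 0.702), and IFNAR1, a subunit of the type I interferon receptor, at 85.1 ± 12.7 and 105 ± 21.8 CPM in the same order (log2 fold change -0.30). The receptor gene of type III interferons, IFNLR1, had at most 2 reads in any library and was not tested.

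Of the genes known to be driven by IRF3 or IRF7, 14 of 15 rose and none fell, and 9 of 15 did so with the block. The exception was OASL, at an edgeR adjusted p of 0.0504. The list had a median log2 fold change of 9.31, with 5 genes of at most 3 control reads set at 3 reads over the control group. That floor is a set value. Reads carry no molecular identifiers and can come from few cells, so a fold against it is no lower bound over cells or batches. IFNB1, the interferon beta gene, had 2078, 1519 and 2463 reads in knockdown and 0 in each control library. It was 1889-fold higher against that floor (edgeR adjusted p = 0.00263). RSAD2, an antiviral enzyme, had 6205, 4785 and 3575 reads in knockdown and 0 in each control library. It was 4540-fold higher against the same floor (edgeR adjusted p = 0.00263). CCL5, a chemokine, had 3639, 22269 and 30491 reads in knockdown and 0, 0 and 2 in control (edgeR adjusted p = 0.00573). The ratio of its reads, after scaling for library size, was 26370. The interval of 7300 to 217750 covers the counting of reads only, not the spread between cells or libraries. For the median CCL5 was set at 17580-fold, its value against 3 control reads. IFNL2, a type III interferon gene whose reads can be split with its near-identical neighbour IFNL3, was 813-fold higher against the floor (edgeR adjusted p = 0.0142).

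Of the genes known to be driven by IRF1, 2 of 15 rose and none fell, 0 with the block, and 7 were higher by DESeq2 (median log2 fold change 2.02). GBP1, a guanylate-binding protein, was at 51.3 ± 29.8 CPM in knockdown and 1.92 ± 0.605 CPM in control (log2 fold change 4.74, SE 0.51, edgeR adjusted p = 0.00995). PSMB9, a subunit of the immunoproteasome, was at 13.5 ± 2.99 CPM in knockdown and 0.897 ± 0.404 CPM in control (log2 fold change 3.91, SE 0.47, edgeR adjusted p = 0.0155). Many genes of the last 2 lists are also induced by interferon through STAT factors, so the lists do not separate the factors.

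**Figure D5:**
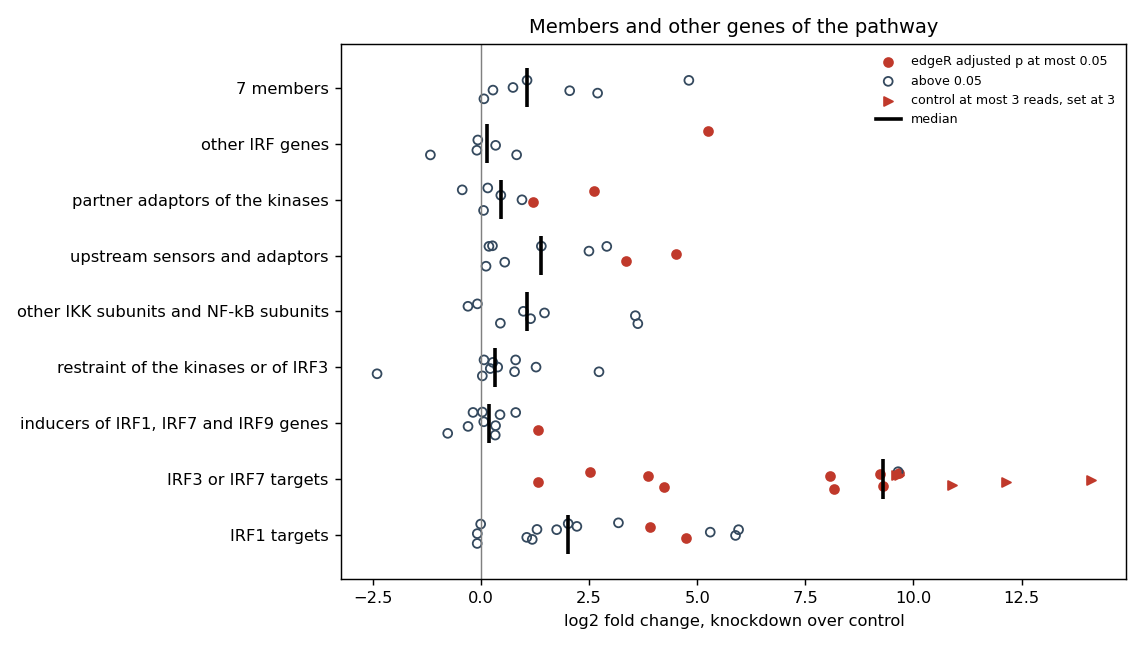
Log2 fold change, knockdown over control, of the 7 genes and of each tested gene of the 8 lists; filled symbols passed an edgeR adjusted p of 0.05, open ones did not, and black lines are medians. Arrowheads mark the 5 genes with at most 3 control reads, drawn against 3 reads over the control group. The IRF3 or IRF7 targets have a median of 9.31 and the 7 genes one of 1.06.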

How the data were processed

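Reads of single LNCaP cells were deposited by the authors as raw counts per gene and cell, with no molecular identifiers. The tools named in the submitters' processing notes are HTSeq 0.6.1, TopHat2 2.1.0, edgeR 3.2.2 and FastQC 0.11.3, with the build GRCh38.p3; for the annotation release and the strand setting, neither is given in the sources used here. Of 414 samples listed, 401 single cells with a matching column were used, with 169244 to 2353816 reads each (median 1150826); 4 value columns were not used. Per the labels, capture sites with more than 1 cell were excluded by microscopy, and no doublet caller was run.

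Counts were summed per group and batch (n = 3 each) and fitted with edgeR 4.0.16 (robust quasi-likelihood test, TMM, filterByExpr with minimum count 10, Benjamini-Hochberg over 20326 genes; limma 3.58.1, DESeq2 1.42.0, R 4.3.3). CPM were computed from the counts with TMM scaling. Shares, cell means and ratios were compared over batches by exact permutation tests (two-sided), with Clopper-Pearson 95% intervals that cover counting error only (Python 3.11.15, scipy 1.17.1). The labels' word Batch pairs the libraries; same-batch deviations correlated at 0.078, 0.000547 and 0.000233. Batches are not said to be separate cultures, so p-values measure a spread that may be technical. All 7 genes are named; of each list up to 4, called genes first by fold change, then the most abundant; a few others were chosen after their values were seen. Some genes of the lists are not reported here. The 7 genes and the lists were chosen with earlier results of these data known.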

Additional observations from a re-analysis of the deposited data

How the results depend on the processing

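With batch as a replicate block edgeR called 38 genes over the whole table, against 158 without it. Other counts were 1442 with DESeq2, 309 without a filter on low counts, 277 with at least 1 CPM in 3 libraries, 53 without cells holding an interferon gene read and 268 with equal weight per cell; leaving out 1 library gave 46 to 69. Of the 7 genes, none was called by edgeR on the filtered table in any of the other settings, 4 were called by DESeq2, 1 (IRF1) without the filter and 1 (IRF1) with equal weight per cell. The direction of IRF1, IRF2, IRF3, IRF7, IKBKE and TANK held in all 15 alternatives; TBK1 turned to -0.0095 without cells holding an interferon gene read, and with 1 library left out it ran from -0.091 (without knockdown batch 3) to 0.30 (without knockdown batch 1), being negative also without control batch 1 (-0.039) and knockdown batch 2 (-0.052). Genes with higher shares of detecting cells in every knockdown batch numbered 6 with thinned cells or at least 5 reads (14.9% of all genes in either), 3 without cells of over 20% mitochondrial reads (9.49%) and 5 to 6 with 1 library left out. By mean level per cell they numbered 5 with log2(CPM + 10) (15.0% of all genes), 4 without those cells (11.7%) and 6 to 7 with 1 library left out. The exact tests within batches gave no p below 0.25, the smallest possible. The comparison of protein sequences that was planned was not run. IRF1 in control rests on few reads, as few as 3 in a library. The causes of these shifts were not tested.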
